A study of Mus musculus with 3 samples.

Results

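Chromatin accessibility in single nuclei of mouse embryos was examined at 10 genes that neurons share whatever their transmitter: Tubb3, Stmn2, Dcx, Nefl, Nefm and Ina of the cytoskeleton, Elavl3 and Elavl4 of RNA binding, and Snap25 and Syt1 of the synapse. These 10, of 21833 protein-coding genes counted, were taken by name from a list that sets no threshold on the data but was drawn up with earlier results of these data known. Each was counted over its body with the 2 kb upstream and, apart from that, over its promoter, from 1000 bp before to 100 bp after the 5′ end of the gene in mm10. The assay (snATAC-seq) lets the transposase Tn5 cut open DNA inside nuclei, so a fragment marks accessible chromatin and not a transcript.

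The nuclei came from embryos of the C57BL/6JRj mouse strain, genotype WT, with no treatment named, taken at embryonic day E12.5, E13.5 and E15.5. Each stage was a single library, made from a few frozen sections of embryos that were littermates of those used in a spatial assay, and its nuclei were stained with 7-AAD and sorted before droplet barcoding. The stage, the library and the embryo therefore cannot be told apart, and neither the sex nor the number of embryos was given. The libraries held 8603028, 66925016 and 39513357 unique fragments in 153, 970 and 756 nuclei of the deposited table. Where a class of nuclei is given 3 values for a gene, they are for E12.5, then E13.5, then E15.5.

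Nuclei were grouped by the cluster numbers deposited with the data. Clusters 0 and 6 are called neurons here (401 nuclei), cluster 9 progenitors (81 nuclei), and clusters 1, 3, 5, 7, 8, 10 and 11 the rest (968 nuclei), while clusters 2 and 4 (429 nuclei) were left out. Markers other than the 10 genes went with these names. Of 14 neuron markers counted, 8 were most accessible in cluster 0 and 4 in cluster 6, and of 12 neural progenitor markers 11 were most accessible in cluster 9. Neuron numbers differed between the libraries, with 16, 163 and 222 nuclei in clusters 0 and 6 and 11, 50 and 20 in cluster 9. The summed neuron markers stood at 3517 to 4007 CPM (defined below) in cluster 0 and still at 2523 to 2657 CPM in cluster 9. Libraries shared at most 1 barcode between any pair, and within a library 5, 32 and 138 nuclei shared many identical fragments with another one, of which 5 were in clusters 0 and 6. Cluster 3 had the deepest nuclei, with a median of 105158 fragments.

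A neuron builds a long process on microtubules and neurofilaments and releases transmitter by fusing vesicles at its synapses, and the genes for these parts are switched on as it leaves the cell cycle. The repressor REST is known to hold many such genes silent in other cells, through an element called RE1 in their regulatory DNA. Elav-like proteins then bind the new neuronal transcripts and act on their splicing and stability.

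The DNA just upstream of the starts differed among the members. RefSeq windows of 300 bases, from 250 before to 50 after a start (GRCm38.p6, the same assembly as mm10), were matched by symbol for 6 of the 10 members: Tubb3, Elavl3, Elavl4, Dcx, Syt1 and Ina. Of each window shown, only the stretch before the start that overlaps no annotated exon is printed, 5′ to 3′ on the strand of the gene, with CpG dinucleotides in capitals. They were chosen because they stand for the patterns described further on: promoters open in progenitors (Tubb3 and the distal start of Elavl4), nearly closed there (Ina), with no fragment there (Dcx), and an internal start (Elavl4).
Tubb3, plus strand, chr8:123411303-123411423: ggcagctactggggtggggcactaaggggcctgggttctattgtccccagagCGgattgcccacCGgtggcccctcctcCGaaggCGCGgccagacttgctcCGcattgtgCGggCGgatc
Ina, plus strand, chr19:47014431-47014680: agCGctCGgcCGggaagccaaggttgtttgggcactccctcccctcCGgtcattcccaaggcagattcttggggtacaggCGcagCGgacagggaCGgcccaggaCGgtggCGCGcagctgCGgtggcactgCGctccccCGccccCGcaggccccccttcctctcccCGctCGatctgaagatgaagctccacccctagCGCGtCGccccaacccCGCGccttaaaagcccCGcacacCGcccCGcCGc
Dcx, minus strand, chrX:143933312-143933469: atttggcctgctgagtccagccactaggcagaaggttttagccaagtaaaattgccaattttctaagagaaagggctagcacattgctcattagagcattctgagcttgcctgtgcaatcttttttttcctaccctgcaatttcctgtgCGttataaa
Elavl4 distal start, minus strand, chr4:110351912-110352161: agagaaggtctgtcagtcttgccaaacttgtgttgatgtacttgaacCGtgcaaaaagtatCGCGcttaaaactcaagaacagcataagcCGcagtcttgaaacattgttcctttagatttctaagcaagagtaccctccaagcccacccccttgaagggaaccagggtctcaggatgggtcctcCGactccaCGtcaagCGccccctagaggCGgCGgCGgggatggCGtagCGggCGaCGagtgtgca
Elavl4 internal start, minus strand, chr4:110287528-110287777: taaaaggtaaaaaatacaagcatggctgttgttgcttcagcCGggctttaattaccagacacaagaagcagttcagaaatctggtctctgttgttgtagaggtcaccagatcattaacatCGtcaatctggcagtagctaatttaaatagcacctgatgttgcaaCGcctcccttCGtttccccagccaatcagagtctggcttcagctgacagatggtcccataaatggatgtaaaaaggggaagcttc
The whole windows of Ina, Elavl3, Tubb3 and the distal Elavl4 start held 32, 29, 26 and 23 CpGs. Those of Syt1 at its outer start, of the internal Elavl4 start and of Dcx held 8, 5 and 3, against a median of 7 over 32851 windows of all genes. The 2 parts of the RE1 element, CAGCACC and GGACAG set 2 bases apart, were searched on both strands and were in 0 of the 11 member windows and in 0.0365% of all windows. An exact match this rare was unlikely in 11 windows whatever their genes. DNA outside these windows was not searched, so whether the members carry RE1 elements cannot be told from this search. The E-box CAGATG, a sequence that proneural factors can bind, was in 3 of the 11 member windows, all at internal starts of Elavl4 (a pair of these windows overlap), and in 17.2% of all windows.

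Promoters of most members were more accessible in neurons than in progenitors and in the rest, but those of Elavl4 and Nefm had pooled levels in progenitors (cluster 9) above those in neurons. Values are CPM, counts per 1000000 promoter fragments over all genes in a class and library. All 10 members were higher in neurons than in the rest in each of the 3 libraries, where 18.1% of 20455 genes were. Against progenitors 8 of the 10 were, and again 18.1% of genes (of 17777 with at least 10 fragments in both classes together). The median of the members' log2 ratios was 2.50 over the rest and 1.36 over progenitors, with library-stratified ratios. The median over all those genes was -0.04 and 0.05. In Dcx and Ina some of these comparisons are with 0 fragments in progenitors. Nothing shows that the deposited clusters were drawn without these genes, so these comparisons are descriptions and carry no test.

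**Figure D1:**
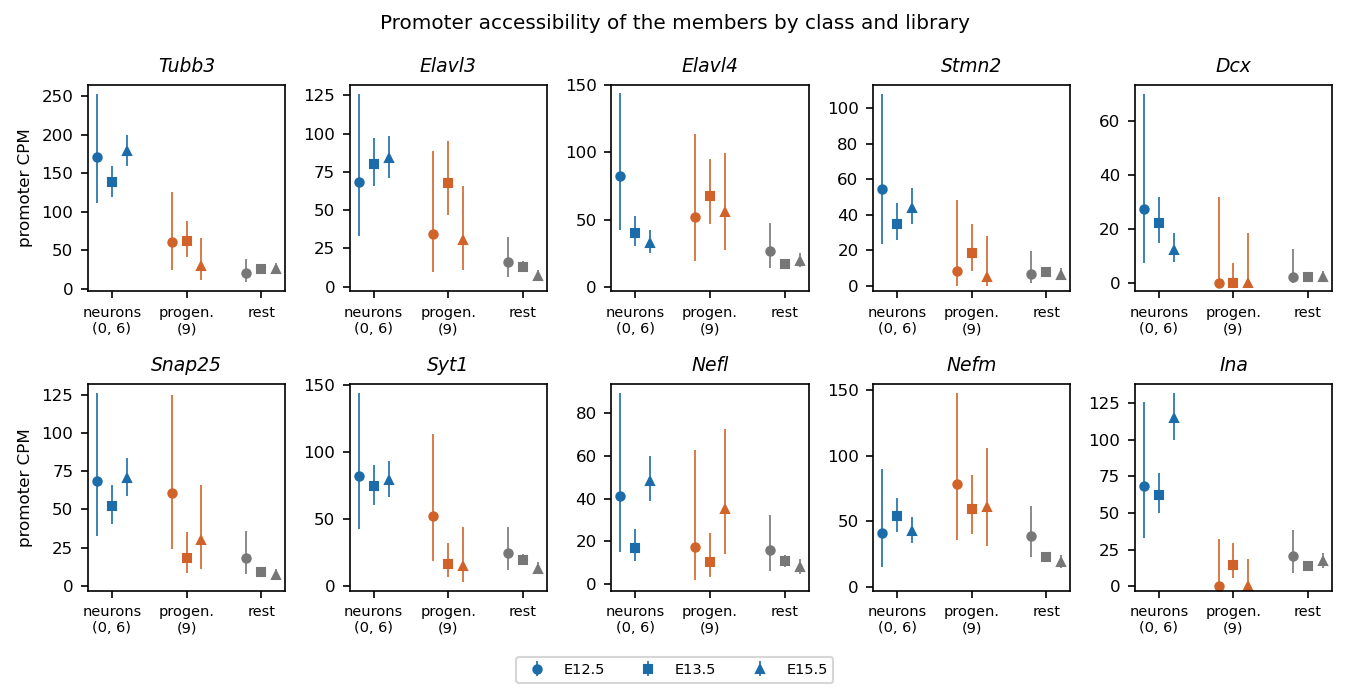
Promoter CPM of each member in neurons (clusters 0 and 6), progenitors (cluster 9) and the rest, with 1 point per library and exact 95% Poisson intervals of the fragment counts, on axes that differ between genes. Tubb3 lies between 138 and 179 CPM in neurons and at most at 61.6 CPM elsewhere, although its neuron and progenitor intervals overlap at E12.5. The neuron and progenitor intervals of Elavl4 and Nefm overlap in every library, with the Nefm points higher in progenitors.

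Among the cytoskeletal members, Tubb3, the neuronal class III beta-tubulin, had the most accessible promoter in neurons. It stood at 171, 138 and 179 CPM in neurons, at 60.7, 61.6 and 30.2 CPM in progenitors and at 20.3, 25.8 and 26.5 CPM in the rest. The values of the 3 classes did not overlap. However, the intervals of neurons and progenitors did at E12.5, as did those of progenitors and the rest at E12.5 and E15.5. The ratio was 2.95-fold over progenitors and 6.16-fold over the rest. The Tubb3 promoter also overlaps the annotated genes Mc1r and Gm20388, whose fragments cannot be told apart from its own.

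Ina, the neurofilament subunit alpha-internexin, was accessible at the promoter in neurons and nearly closed in progenitors. Its promoter had 68.5, 62.5 and 115 CPM in neurons, and in progenitors 7 fragments at E13.5 (14.4 CPM) and 0 at E12.5 and E15.5, where 3 fragments would have been 26.0 and 15.1 CPM. The ratio was 9.20-fold over progenitors and 5.64-fold over the rest, which had 20.3 CPM at E12.5 and 17.2 CPM at E15.5. For this gene the rest was not shown to lie below the progenitors. The window overlaps the neighbouring gene Nt5c2.

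Dcx, an X-linked microtubule-binding protein of migrating young neurons, had a weak promoter signal, most of it in neurons. It had 27.4, 22.3 and 12.3 CPM there, from 4, 30 and 22 fragments, and 0 fragments in progenitors in every library. With a floor of 3 fragments over the 3 libraries, neurons were at least 5.30-fold higher than progenitors. Only at E13.5 did the intervals separate, with 15.1 to 31.9 CPM in neurons and an upper limit of 7.58 CPM in progenitors. In the rest the promoter had 2.26, 2.15 and 2.15 CPM, 8.24-fold less than in neurons, and 11 of those 19 fragments were in cluster 3.

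Stmn2, which frees tubulin in growing axons, had 54.8, 35.0 and 44.0 CPM in neurons and 8.67, 18.5 and 5.04 CPM in progenitors, from only 1, 9 and 1 fragments. The neuron values lay above the progenitor values, but their intervals overlapped at E12.5 and E13.5, and the progenitors overlapped the rest (6.78, 7.71 and 6.44 CPM). The ratio was 2.96-fold over progenitors and 5.70-fold over the rest.

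The neurofilament light and medium genes lie next to each other on chromosome 14 and behaved unlike Ina. Nefl had 41.1, 17.1 and 48.5 CPM in neurons against 17.3, 10.3 and 35.3 CPM in progenitors, so the classes overlapped across libraries although neurons were higher within each. Nefm had 41.1, 53.6 and 42.4 CPM in neurons and 78.0, 59.6 and 60.5 CPM in progenitors, lower in neurons in 3 of 3 libraries. Their intervals overlapped in every library. The direction of Nefm turned with the grouping of nuclei. In the progenitor-like cluster drawn without the members (described further on) its promoter had 65.6, 37.2 and 43.1 CPM, and the log2 difference in edgeR was 0.22 ± 0.38 with those clusters and -0.38 with the deposited ones, neither of which passed. Against the rest, Nefl was 3.46-fold and Nefm 2.24-fold higher in neurons. The Nefl promoter lies within the long annotated span of Nefm.

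The RNA-binding members also split. Elavl3 had 68.5, 80.3 and 84.2 CPM in neurons, 34.7, 67.8 and 30.2 CPM in progenitors and at most 15.8 CPM in the rest, a ratio of 1.51-fold over progenitors and 7.86-fold over the rest. Its intervals in neurons and progenitors overlapped at E12.5 and E13.5 and not at E15.5. The Elavl3 promoter also overlaps the annotated gene Gm49318, whose fragments cannot be told apart from its own. The distal start of Elavl4, whose CpG-rich sequence is printed above, had 82.2, 40.2 and 32.9 CPM in neurons and 52.0, 67.8 and 55.4 CPM in progenitors, higher in neurons at E12.5 alone. Its intervals overlapped at each stage, and its ratio was 0.681 over progenitors and 2.05 over the rest.

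Elavl4 has 5 further annotated groups of starts within the gene, and values at some of these differed from those at the distal one. At position 110287527 of chromosome 4, the internal start with the sequence above, neurons had 47.9, 46.1 and 39.6 CPM. Progenitors had 0, 24.6 and 25.2 CPM there and the rest 4.52, 3.41 and 5.36 CPM. The start at position 110286889, less than 1 kb downstream, had 41.1, 54.3 and 39.0 CPM in neurons, 0, 30.8 and 25.2 CPM in progenitors and at most 5.74 CPM in the rest. Thus neurons exceeded progenitors in 3 of 3 libraries at both internal starts and in 1 of 3 at the distal one. Progenitors had few fragments there, 0, 12 and 5 at the first of these internal starts and 0, 15 and 5 at the second. No intervals were computed for the internal starts. At a further internal start, position 110290272, neurons had 20.5, 32.7 and 20.6 CPM and progenitors 17.3, 32.9 and 35.3 CPM, so not every internal start went this way. The internal starts lie so close that some fragments count for more than 1 of them, so they are not separate observations.

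Of the synaptic members, Snap25, a SNARE protein of vesicle fusion, had 68.5, 52.1 and 70.2 CPM in neurons and 60.7, 18.5 and 30.2 CPM in progenitors. The E12.5 progenitor value rested on 7 fragments and overlapped the neuron values, and the ratio was 2.23-fold. Syt1, the calcium sensor of that fusion, had 82.2, 74.4 and 79.1 CPM in neurons and 52.0, 16.4 and 15.1 CPM in progenitors, a ratio of 3.86-fold, with values that did not overlap and intervals that did at E12.5 alone. Over the rest, Snap25 was 7.28-fold and Syt1 4.61-fold higher.

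**Figure D2:**
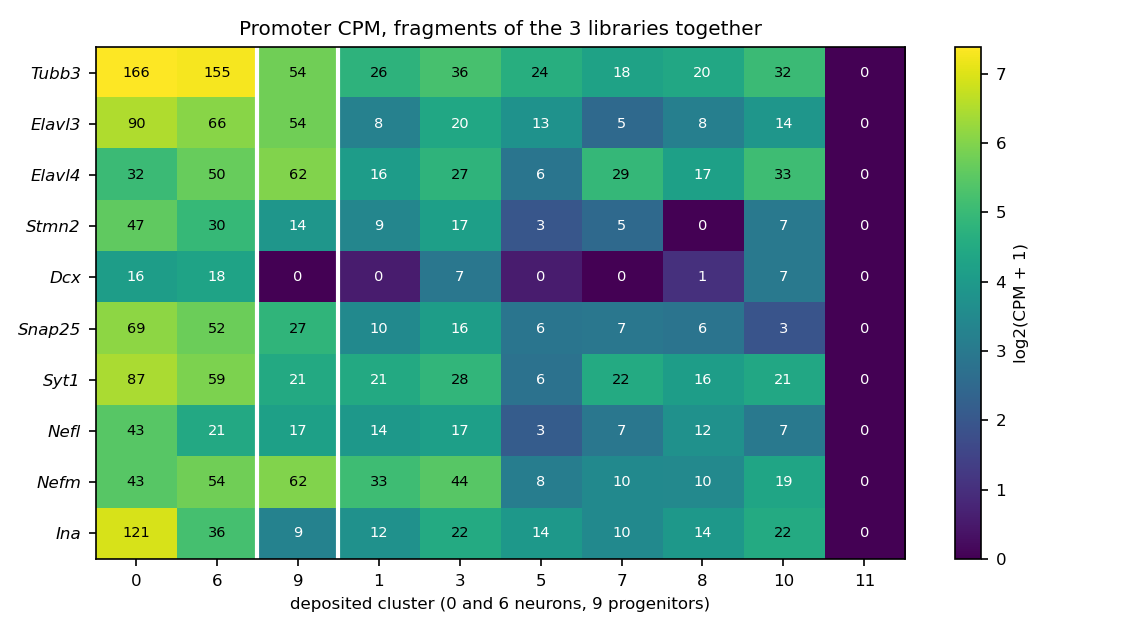
Promoter CPM of each member (rows) in each deposited cluster (columns), from the fragments of the 3 libraries together; numbers are CPM and colour is log2(CPM + 1). Tubb3 is highest in clusters 0 and 6 (166 and 155 CPM), Ina stands out in cluster 0 (121 CPM), Elavl4 and Nefm are highest in cluster 9 (62.4 CPM each), and cluster 11 has no fragment for any member.

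Across single clusters, the order of promoter levels was not the same for all members. Pooled over libraries, Elavl3, Stmn2, Snap25, Syt1, Nefl, Tubb3 and Ina were highest in cluster 0, Dcx in cluster 6 and Elavl4 and Nefm in cluster 9. Libraries have different shares in these clusters, and within every library cluster 0 lay above clusters 6 and 9 for Stmn2, Snap25, Syt1 and Ina alone. Dcx had 18.3 CPM in cluster 6 and 16.4 CPM in cluster 0 from 21 and 35 fragments, and by library 0, 23.2 and 12.4 CPM against 41.9, 21.4 and 12.2 CPM, so neither cluster was above the other throughout. At E12.5 Elavl4 and Nefm were higher in cluster 6 than in cluster 9 (178 against 52.0 CPM and 98.8 against 78.0 CPM), from 9 and 5 fragments in cluster 6. Among the 7 clusters of the rest, cluster 3 had the highest sum over the members, 233 CPM, against 84.1 CPM in cluster 5 and 0 in cluster 11. Clusters 0, 6 and 9 had 714, 541 and 321 CPM. Cluster 5, where 3 of 8 erythroid markers were highest, served as the class that should lack these genes. After every nucleus was thinned to 10000 fragments, 55.2% of cluster 0 nuclei at E13.5 had a promoter fragment of any member (95% exact binomial interval 44.1 to 65.9). In cluster 6 the share was 53.9%, in cluster 9 it was 32.0% (19.5 to 46.7) and in cluster 5 it was 8.75% (4.87 to 14.2). Before thinning these shares were 92.0, 94.7, 82.0 and 39.2%, at medians of 63587, 67888, 71843 and 62521 fragments per nucleus. At E15.5 the thinned share was 68.3% in cluster 0 and 21.1% in cluster 9 (6.05 to 45.6). Cluster 5 had 2 of 10 nuclei (2.52 to 55.6), too few to place cluster 9 against it in this library. The rest had 11.2% there (7.94 to 15.3), an interval that overlaps that of cluster 9. Thinning left out 6 nuclei of cluster 5 at E13.5, and 8 of cluster 0 and 1 of cluster 9 at E15.5. It also left out 1 nucleus of cluster 5 in the E12.5 library. There the thinned share was the same in clusters 0 and 9, 36.4% or 4 of 11 nuclei each (10.9 to 69.2). It was 3 of 5 nuclei in cluster 6 and 0 of 9 in cluster 5. Thus cluster 0 was not above cluster 9 at equal depth in that library.

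Over gene bodies the members were also more accessible in neurons, by a smaller median ratio than at promoters. Values are CPM of the fragments over the spans of all genes. All 10 members were higher in neurons than in the rest in 3 of 3 libraries (16.2% of 21159 genes were) and 8 of 10, all but Snap25 and Nefm, were higher than in progenitors (17.8% of 20833 genes). For the members the median log2 ratio was 1.20 over the rest and 0.82 over progenitors, from means over libraries. Over all those genes it was -0.11 and 0.01, from library-stratified ratios, the measure used at promoters. The median of the members over progenitors was 0.59 without E15.5. Ina had 41.7, 35.5 and 52.3 CPM in neurons and 7.53, 10.8 and 13.3 CPM in progenitors, a log2 ratio of 2.05 ± 0.38 (SD, n = 3 libraries). Stmn2 had a log2 ratio of 1.52 ± 0.85, Dcx 1.17 ± 0.50, Nefl 1.14 ± 0.81 and Tubb3 1.03 ± 0.77 in the same comparison. Elavl4 stood at 0.22 ± 0.10 and Nefm at 0.00 ± 0.17, so the Nefm ratio was within its spread over libraries.

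The span of Nefm takes in the whole of Nefl through 1 long annotated transcript. Counted over its short transcript alone, chr14:68119283-68124846, the log2 ratio of Nefm over progenitors was -0.76, a count chosen after seeing the data. Levels of different genes were compared per kb of counted span. In neurons Tubb3 had 5.78, 5.66 and 5.97 CPM per kb, Ina 3.30, 2.81 and 4.14 and Nefl 3.49, 1.98 and 3.67. The long genes Syt1, Dcx, Snap25 and Elavl4 had between 0.510 and 0.961 CPM per kb. Ina and Nefl overlapped in this order and so did these long genes in part, whereas Tubb3 lay above the other 9. Every counted span holds the promoter and the 2 kb upstream, which weigh more per kb in a short span. Tubb3, Ina and Nefl had the shortest spans of the members, 12.6, 12.6 and 7.23 kb. The part of span length in this order was not tested.

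Because Dcx is on the X chromosome and the sex of the embryos was not given, its body counts were also set against X-linked genes alone. As CPM of X-linked body fragments, Dcx had 2793, 3861 and 3548 in neurons, 1538, 1576 and 1322 in progenitors and 2390, 1643 and 2029 in the rest. Neurons stayed above both classes in each library on this scale. The Dcx body was also accessible in cluster 10, where all 8 muscle markers were highest, with 66.5 CPM at E13.5 and 53.3 CPM at E15.5 (cluster 10 held 2 nuclei at E12.5, with 1 fragment in the Dcx body), while its promoter had 8.13 and 4.51 CPM there. Cluster 0 had 58.2 and 68.1 CPM in those libraries. In cluster 10 the tile of 1 kb with the most Dcx fragments lay 48 kb into the gene, in an intron, and held 14.7% of its Dcx fragments (43 of 292) against 2.05% in neurons (24 of 1168). As CPM of all unique fragments it had 5.56 and 7.34 there at E13.5 and E15.5, against 0.890 and 0.877 in neurons.

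Tubb3 showed the same kind of difference in cluster 5. Its body had 26.1, 39.6 and 39.6 CPM there, within the range of the progenitors (20.5 to 56.5 CPM), while its promoter had 0, 25.1 and 19.9 CPM. A tile 5 kb into the gene, in an intron, held 26.1% of the Tubb3 fragments of cluster 5 (102 of 391) and 4.32% of those of neurons (59 of 1367), over the 3 libraries together. As CPM of all unique fragments it had 10.9, 7.20 and 1.97 in cluster 5 and 2.40, 1.94 and 2.09 in neurons, so cluster 5 was not above neurons at E15.5. It held 10 nuclei in that library and 10 at E12.5. These tiles were chosen for their counts in those clusters and are a description.

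Within the members, the tile of 1 kb outside the promoter with the highest neuron CPM, as the mean of the 3 libraries, was located. In Dcx it lay 30 kb into the gene, in an intron. The 300 bases of it with the most fragment ends in clusters 0, 6 and 9 are shown because they held fragments in progenitors, where the Dcx promoter window held none. They are on the minus strand, with the E-box CAGCTG, found in 16.3% of all promoter windows of this length, in capitals.
Dcx intron, chrX:143902324-143902623: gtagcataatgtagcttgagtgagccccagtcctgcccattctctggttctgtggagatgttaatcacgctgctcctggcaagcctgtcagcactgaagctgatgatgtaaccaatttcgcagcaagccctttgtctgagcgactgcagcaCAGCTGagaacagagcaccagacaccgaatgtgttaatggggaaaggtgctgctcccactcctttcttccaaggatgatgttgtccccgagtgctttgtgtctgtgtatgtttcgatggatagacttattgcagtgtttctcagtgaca
This stretch had 1.80, 2.99 and 3.30 CPM of all unique fragments in neurons, from 3, 37 and 49 fragments. Progenitors had 2.33, 2.04 and 1.35 CPM, from 3, 8 and 2 fragments, and the rest 0, 0.183 and 0.0450. Neurons and progenitors overlapped. In the first and second kb of the gene progenitors had means of 0.480 and 0.599 CPM on that scale, and neurons 3.66 and 3.15. The intron tile was chosen for its neuron CPM and the stretch for its ends in clusters 0, 6 and 9. Their place above the rest, and in part the progenitor signal of the stretch, therefore follow from the choice. They are a description, as are the tiles of the other members. In Elavl4 the corresponding tile lay 64 kb into the gene at the internal starts, with 3.60, 5.10 and 4.72 CPM on the same scale in neurons, 0, 3.31 and 3.37 in progenitors and at most 0.591 in the rest. In Nefm it lay 40 kb in, on the start of Nefl. In Tubb3, Elavl3, Stmn2, Nefl and Ina it lay 1 kb into the gene, in Syt1 375 kb into it in an intron, and in Snap25 just outside the gene, 2 kb upstream. Some of these tiles were as accessible elsewhere. The Elavl3 tile had a mean over libraries of 7.40 CPM in neurons, 6.95 in progenitors and 8.64 in cluster 5. The Snap25 tile had 0, 2.91 and 2.76 CPM in neurons and 3.89, 1.27 and 3.37 CPM in progenitors.

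**Figure D3:**
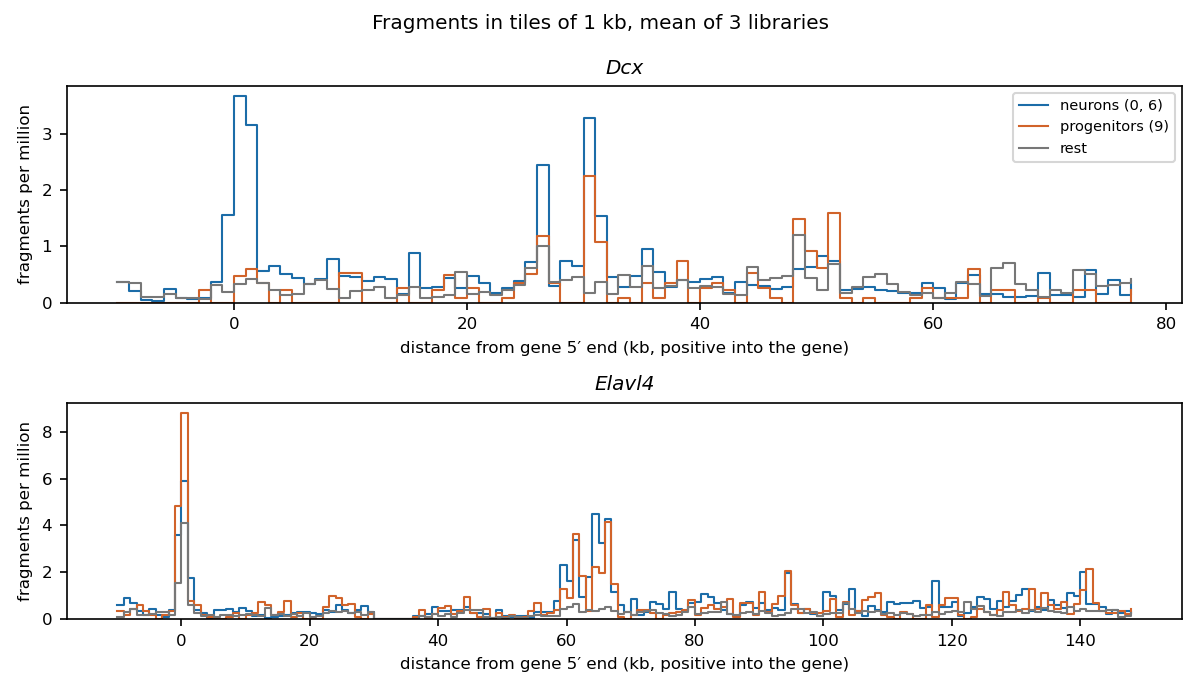
CPM of all unique fragments in tiles of 1 kb along Dcx and Elavl4, from 10 kb before the 5′ end to the 3′ end, as means of the 3 libraries in neurons, progenitors and the rest. In Dcx the first kb has 3.66 CPM in neurons and 0.480 in progenitors, while the peak at 30 kb has 3.27 and 2.25, and in Elavl4 the peak at the 5′ end is highest in progenitors (8.80 CPM against 5.91 in neurons).

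To test the members without clusters drawn on them, nuclei were clustered anew on bins of 5 kb with every bin within 50 kb of a member left out, and named from markers that are not members. The neuron-like clusters held 14, 157 and 220 nuclei, the progenitor-like cluster 13, 45 and 20, and all others 55, 607 and 318. Of the progenitor-like nuclei 92.3% were in deposited cluster 9. Fragments were summed per class and library and tested with edgeR, with the library as a block and adjustment over all genes tested. Other genes did take part in that clustering, so the share of all genes called is a background and not an error rate.

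Against all other clusters, 10 of 10 members were more accessible over the body (5.38% of 18630 genes were called higher and 3.47% lower) and 9 of 9 tested at the promoter (8.98% of 11978 genes higher and 9.06% lower). Dcx was left out of the promoter test by its low counts. Over the body the log2 differences ran from 0.61 ± 0.17 (SE) for Syt1 (adjusted p = 0.0273) to 1.94 ± 0.24 for Tubb3 (adjusted p = 5.32e-05). At the promoter they ran from 1.05 ± 0.34 for Elavl4 (adjusted p = 0.0249) to 3.02 ± 0.32 for Elavl3 (adjusted p = 9.84e-10). The median over the members was 1.34 over the body and 2.40 at the promoter, against -0.01 and 0.00 over all genes tested. Without E13.5 the promoter calls of Elavl4, Nefm and Nefl were lost (adjusted p = 0.275, 0.435 and 0.0904 in edgeR), and that of Elavl4 was lost without either other library too, and that of Nefm without E15.5 (adjusted p = 0.213). Nefl fell below the count filter without E15.5 and was not tested there, which left 6 of 8 called. Over the body, Dcx, Snap25 and Syt1 were not called without E13.5, and without E15.5 the calls left were Tubb3, Elavl3, Elavl4 and Nefm.

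Against progenitor-like nuclei, 4 of 10 members were higher over the body, where 1.02% of genes were called higher and 1.79% lower, and no member was lower. These were Ina (log2 difference 1.74 ± 0.28, adjusted p = 0.00175), Dcx (1.18 ± 0.24, adjusted p = 0.00900), Stmn2 (1.32 ± 0.28, adjusted p = 0.0113) and Tubb3 (1.17 ± 0.26, adjusted p = 0.0178). Nefl, at 1.34 ± 0.38, and Snap25, at 0.84 ± 0.24, had adjusted p of 0.0561 and 0.0554, and both passed with DESeq2 (adjusted p = 0.0274 and 0.0368). Elavl3 (0.57 ± 0.19), Syt1 (0.41 ± 0.17), Nefm (0.26 ± 0.21) and Elavl4 (0.20 ± 0.17) did not pass.

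At the promoter, 4 of 9 tested members were higher than in progenitor-like nuclei (1.1% of genes were called higher and 3.69% lower), and no member was lower. Ina had a log2 difference of 3.70 ± 0.55 (adjusted p = 1.08e-05), Tubb3 1.88 ± 0.28 (adjusted p = 1.25e-05), Syt1 1.83 ± 0.42 (adjusted p = 0.00500) and Stmn2 2.03 ± 0.60 (adjusted p = 0.0348). Snap25 (1.35 ± 0.46, adjusted p = 0.0793), Nefl (0.83 ± 0.58) and Elavl3 (0.73 ± 0.35) did not pass, nor did Nefm (0.22 ± 0.38) and Elavl4 (-0.50 ± 0.39, adjusted p = 0.551). Without the filter on low counts Dcx had 3.01 ± 1.06 (adjusted p = 0.108), from 2 fragments in the progenitor-like nuclei at E13.5. Ina and Tubb3 at the promoter and Ina over the body passed without any single library. At the promoter Syt1 was not called without E13.5 or E15.5 (adjusted p = 0.257 and 0.283), nor Stmn2 without any library or with DESeq2 (adjusted p = 0.0700). Without E13.5 the calls over the body were Ina and Stmn2 alone, and without E15.5 Ina alone.

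**Figure D4:**
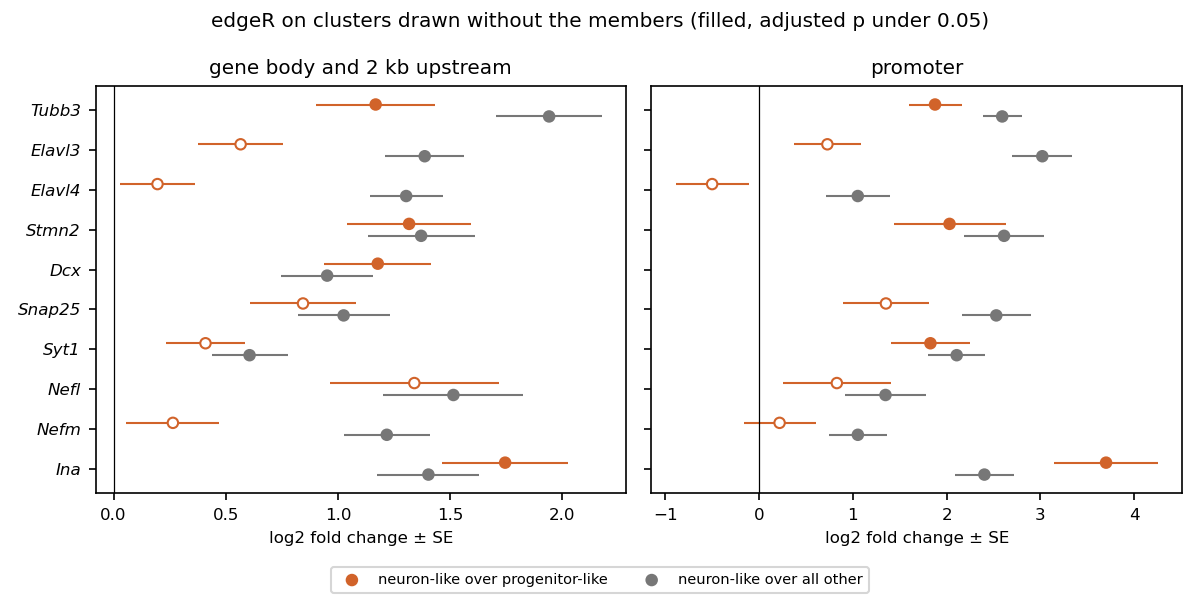
Log2 fold changes ± SE from edgeR over the body (left) and the promoter (right), in clusters drawn without the members, for neuron-like over progenitor-like and over all other nuclei; filled points have an adjusted p under 0.05. Every point over all other nuclei is filled, while Elavl3, Elavl4, Nefl, Nefm and Snap25 are open against progenitor-like nuclei in both panels, and Dcx has no promoter point.

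Not all neuron-like clusters carried the members alike. Own cluster 4 was led by genes that include Neurod6, Neurod1, Neurog2 and Slc17a6, a glutamate transporter gene, and own clusters 2 and 5 by genes that include Gad2 or Slc32a1 of inhibitory neurons. Progenitor markers were also raised in own cluster 4, 6 of 12 against 1 and 2 in own clusters 2 and 5. At resolution 2 a cluster of 61 nuclei with most of the same leading genes and Eomes had 6 of 12 raised and stayed unnamed. It also had 7 neuron markers raised, and 95.1% of its nuclei were in deposited clusters 0 and 6. Being unnamed, it counted among all other clusters in the run at resolution 2. Own cluster 2 was mixed, with Slc17a6 raised beside Gad1, Gad2 and Slc32a1. The Slc17a6 body had 50.8 and 74.4 CPM in it at E13.5 and E15.5, 31.8 and 41.4 CPM in own cluster 5 and 113 and 129 CPM in own cluster 4. The part of these markers in the differences below was not tested. The Ina promoter had 109 and 151 CPM in own cluster 2 at E13.5 and E15.5, 73.2 and 108 CPM in own cluster 5, and 37.3 and 33.0 CPM in own cluster 4, whose intervals (24.1 to 55.0 and 16.5 to 59.1) lay below those of own cluster 2. Between the deposited clusters the same gene had 91.9 and 138 CPM in cluster 0 and 34.7 and 34.7 CPM in cluster 6. Nefl at E15.5 was 62.5 CPM in own cluster 2 (47.9 to 80.1) against an interval of 6.61 to 39.2 CPM in own cluster 4.

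Tubb3 ran the other way at E13.5, with 84.8 CPM in own cluster 2 (58.0 to 120) and 158 and 177 CPM in own clusters 4 and 5. Elavl3 and Syt1 were more even, between 57.1 and 94.8 CPM and between 54.1 and 98.9 CPM over these clusters and both libraries, with overlapping intervals within each library. Own clusters hold few nuclei at E12.5 (9, 3 and 2), so that library is not given here. These values carry no test, and the intervals cover counting error only.

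**Figure D5:**
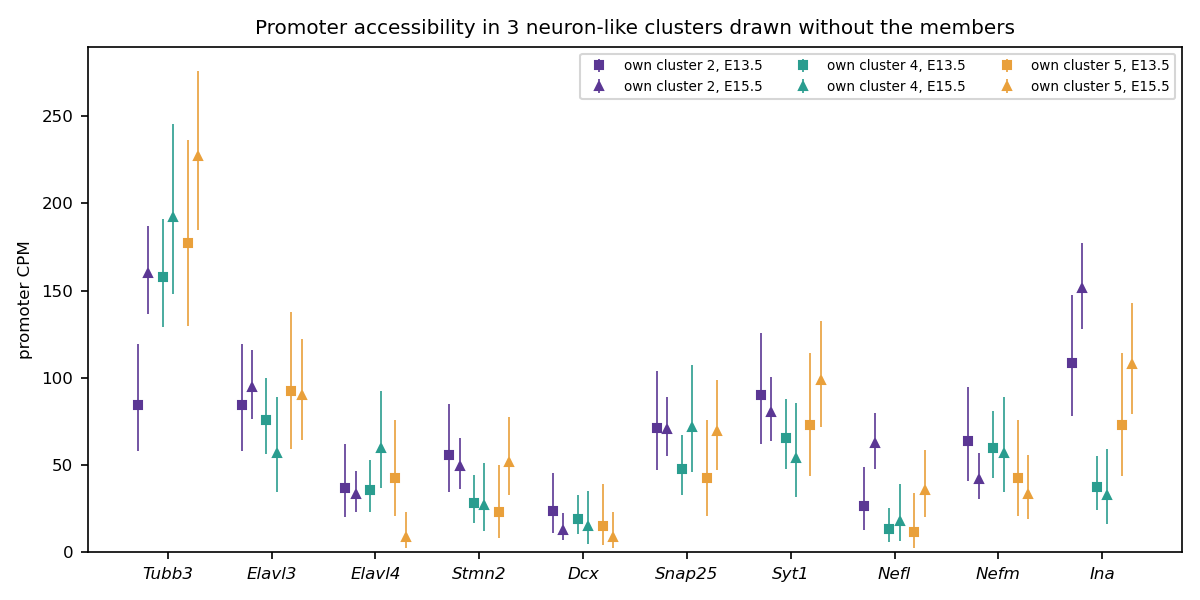
Promoter CPM with exact 95% Poisson intervals in own clusters 2, 4 and 5 at E13.5 and E15.5. Ina is lowest in own cluster 4 (33.0 to 37.3 CPM) and highest in own cluster 2 (109 to 151 CPM), while Elavl3 and Dcx overlap over all 3 clusters.

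By library, and so by stage, the neuron intervals of 7 members overlapped between E13.5 and E15.5, and those of Tubb3, Nefl and Ina did not. The share of all genes with such a gap was not computed, so this count is not a result about the members as a set. Within cluster 0 the Ina promoter had 73.4, 91.9 and 138 CPM, and the E15.5 interval (119 to 159) lay above that of E13.5 (70.1 to 118). Nefl in cluster 0 had 21.0, 21.4 and 54.6 CPM, with E15.5 (43.1 to 68.4) above E13.5 (11.7 to 36.0). In cluster 6 neither gene differed beyond its intervals between these libraries. Nor did they within own clusters 2 and 5, where Ina had intervals of 77.9 to 147 and 128 to 177 CPM in own cluster 2 and of 44.1 to 114 and 79.6 to 143 CPM in own cluster 5. Those of Nefl were 12.7 to 48.7 and 47.9 to 80.1 CPM in own cluster 2 and 2.38 to 33.8 and 20.6 to 58.4 CPM in own cluster 5. The Tubb3 promoter had 129 and 182 CPM in cluster 0 and 148 and 169 CPM in cluster 6 at E13.5 and E15.5. Its levels in own clusters are not compared between these libraries here. In progenitors Tubb3 had 60.7, 61.6 and 30.2 CPM, with overlapping intervals. Whether these differences belong to the stage cannot be told apart from the library.

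Other neuronal genes, from lists of axon, synapse and RNA-binding genes, were also higher in neuron-like nuclei, with lower medians than the members. Over the body, 24 of 30 axon and cytoskeleton genes were higher in neuron-like nuclei than in all others (median log2 0.91, and 5.38% of all genes were called higher), with Uchl1 (1.71 ± 0.22) and Crmp1 (1.66 ± 0.20) the highest and Prph (0.08 ± 0.35) the lowest. Against progenitor-like nuclei, where 1.02% of all genes were called higher, 4 of the 30 passed: Nefh, the heavy neurofilament subunit (1.42 ± 0.36), Crmp1 (1.22 ± 0.21), Mapk10 (0.96 ± 0.19) and Dpysl5 (0.69 ± 0.17). Among 30 synapse genes 13 were higher than in all others (median 0.55) and 3 than in progenitor-like nuclei, namely Sv2a, Erc2 and Rab3c. Stx1a, a syntaxin of the same fusion complex as Snap25, had -0.49 ± 0.19 against all others and did not pass. Map2, Mapt, Gap43 and Cntn2 of the axon list are among the markers that named the neuron-like clusters, so their calls follow in part from the naming. Without these markers, a count added after seeing the data, 20 of 26 axon and cytoskeleton genes (median 0.88) were higher than in all others, and 4 than in progenitor-like nuclei.

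Of 14 neuronal RNA-binding genes, 10 were higher over the body than in all others (median 1.00), beside the same 5.38% of all genes, with Celf3 the highest at 2.04 ± 0.22. Against progenitor-like nuclei 4 of 14 passed (1.02% of all genes), led by the splicing factors Srrm3 (1.65 ± 0.19) and Srrm4 (1.15 ± 0.22). At the promoter, 19 of 23 axon and cytoskeleton genes, 17 of 27 synapse genes and 10 of 12 RNA-binding genes passed against all others (8.98% of all genes), and 2, 2 and 4 against progenitor-like nuclei (1.1%). Celf4 and Rbfox3 of the RNA-binding list are naming markers too. Without these, 8 of 12 RNA-binding genes were higher over the body than in all others (median 0.95) and 3 of 12 than in progenitor-like nuclei. At the promoter, without the naming markers, 17 of 20 axon and cytoskeleton genes and 9 of 11 RNA-binding genes passed against all others, and 2 and 3 against progenitor-like nuclei. None of the genes in these 3 lists passed in the lower direction in any of the 4 comparisons.

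Broadly used relatives of the members had few calls over the body, and their promoter calls were all in the lower direction. The difference between these counts and those of all genes was not tested. Of 14, among them Tubb5, Elavl1, Stmn1 and Snap23, 1 was higher over the body than in all others (Stmn1, 0.69 ± 0.18) and 2 were lower (Lmna, -0.71 ± 0.18, and Snap47), where 5.38% of all genes were higher and 3.47% lower. The intermediate filament gene Vim, typical of progenitors, was lower than in progenitor-like nuclei over the body (-1.52 ± 0.22) and was the only one of the 14 to pass there, where 1.79% of all genes were lower. At the promoter 5 of 13 were lower than in all others, Tubb6, Snap23, Esyt1, Vim and Lmnb1 (9.06% of all genes were), and 2 of 13, Vim and Lmnb1, were lower than in progenitor-like nuclei (3.69% of all genes). Over the body, the median of the 14 was -0.24 against all others, where the members had 1.34.

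Of the gene for REST and 9 of its cofactors, Rest itself had a lower promoter in neuron-like than in progenitor-like nuclei (log2 -1.54 ± 0.34, adjusted p = 0.00360) and a lower body (-0.81 ± 0.22, adjusted p = 0.0474). The phosphatase gene Ctdsp1 was also lower at the promoter (-1.02 ± 0.26) and over the body (-0.98 ± 0.21). The other 8 did not pass in that comparison, where 3.69% of all promoters and 1.79% of all bodies were called lower. Against all others, Rest, Ctdsp1 and Hdac1 were lower and Rcor2 higher at the promoter, where 9.06% of all genes were lower and 8.98% higher, and Ctdsp1 was lower over the body, where 3.47% were.

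Body values of the members went together across clusters to different degrees. Over 24 sums of a deposited cluster and a library with at least 10 nuclei, the Pearson r of each member with the mean of the other 9 (log2 of CPM + 1) ran from 0.61 for Tubb3 and Nefl to 0.88 for Snap25 and Syt1. The non-member genes most like the mean of the members, of 13386 with at least 20 CPM on average, were Myt1l (r = 0.96), Grik3 (0.95), Igsf9b (0.95), Anks1b (0.94), Opcml (0.94), Snap91 (0.94), Tmem178b (0.94), Nfasc (0.93), Slc17a6 (0.93) and Rnf165 (0.93). Myt1l and Slc17a6 are also among the neuron markers used to name clusters. These sums share libraries and depth, and the values are given as a description.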

How the data were processed

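The authors made 1 fragment file per library with Cell Ranger ATAC 2.0.0 against mm10, and the labels also name Seurat 4.1.0 and Signac 1.6.0. Each deposited fragment row holds a position, a barcode and a whole-number count of supporting read pairs, and a deposited table gives 1879 nuclei with their library and cluster number. Per the methods, nuclei were counted over ENCODE peaks and integrated with the spatial profiles (anchors, then Harmony by sample), and clusters came from that integration. Neither their resolution nor their link to the deposited numbers is stated, and 20 columns of that table were not used.

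Each unique fragment counted once per gene (GENCODE vM21 on the same build, with 79 Pcdh and Ugt genes left out) and once per promoter, scaled to CPM. Body ratios are means over libraries. Promoter ratios are stratified by library (Mantel-Haenszel weights) because some counts were 0, a change from the planned mean, and a group at 0 was set to a floor of 3 fragments over the group. Intervals are exact at 95%, two-sided, and cover counting error only. New clusters used 50000 autosomal bins, 20 components and Leiden (leidenalg 0.10.2) at resolution 1, for 1449 nuclei with at least 3000 fragments. A cluster was named where at least 3 markers of a list were raised 1.5-fold and they made up much of the list or were among its leading genes. No doublet caller was run. Tests used edgeR 4.0.16 (quasi-likelihood, TMM, two-sided, Benjamini-Hochberg), were checked on simulated counts, and had DESeq2 1.42.0 as an alternative. Other alternatives changed the scaling, windows, filters, clusters and libraries. With 1 library per stage, the 3 stages served as replicates. The library was a block, so p-values set the class differences against how much those differences vary over these libraries, including any change with stage.

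The members, gene lists and tests were chosen with earlier results of these data known. The genes named are the members, up to 4 of each list with the highest and lowest ratios over progenitors, the 10 most alike genes and the top tile of each member. Other list genes, and the tiles in clusters 5 and 10, were chosen after their values were seen.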

Additional observations from a re-analysis of the deposited data

Results flagged for a closer look

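Some member ratios of neurons over progenitors took opposite signs at different stages, each of which is 1 library, so the difference was not tested. The Elavl4 promoter had a log2 ratio of 0.66 in the E12.5 library, from 12 and 6 fragments, and of -0.75 in the other two. Snap25 over its body had -0.10, then 0.51 and 0.95 in the later libraries. Nefm over its body had 0.11, -0.21 and 0.0863 in stage order.

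The members also had promoter fragments in the clusters that were left out of every comparison. Their summed promoter accessibility was 259 CPM in cluster 2 (48 fragments, median depth 7470 fragments per nucleus) and 938 CPM in cluster 4, where it rested on 11 fragments of 11732.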

How the results depend on the processing

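The median member ratios kept their direction in every alternative run. On the log2 scale the promoter median over the rest, 2.50, moved to 1.90 with cluster 6 alone and to 1.95 with a window of 1000 bp on either side. Leaving out each library gave 0.59 to 0.90 for the body median over progenitors, 1.07 to 1.31 over the rest, and 1.11 to 1.41 and 2.22 to 2.66 for the promoter medians. Members called higher without each library numbered 1 to 5 (body) and 2 to 4 (promoter) against progenitor-like nuclei, and 4 to 10 and 6 to 9 against all others, lowest without E13.5 or E15.5. Other settings gave 3 to 6 and 3 to 5, and 10 in each and 7 to 10. The 7 promoter calls came at resolution 2, where an unnamed cluster mostly from deposited clusters 0 and 6 counted among all others. Against progenitor-like nuclei, the body difference of Nefm, 0.26, reversed to -0.01 (-0.0129) with the deposited clusters and to -0.39 over its short transcript. Its promoter difference reversed to -0.38 with the deposited clusters and ran from -0.13 to 0.37 without each library. None of these passed, and the cause was not tested.

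Genes called higher and lower, in place of 190 and 333 for the body against progenitor-like nuclei, were 334 and 483 with DESeq2 and 333 and 508 at resolution 2. For the promoter, in place of 132 and 442, they were 46 and 298 with DESeq2, 238 and 662 at resolution 2 and 213 and 329 without the filter, and against all others 770 and 626 with DESeq2 in place of 1076 and 1085. Without TMM factors the body split against all others was 786 and 926 in place of 1002 and 647. Without each library the higher calls ran from 24 to 313 and 259 to 1384 for the body and from 7 to 173 and 248 to 1434 for the promoter, the lower calls from 33 to 504 and 78 to 953, and from 53 to 454 and 208 to 1370. Of 938 member values recomputed, 858 kept their call or stayed within the spread between libraries. Of the others, 36 ratios moved beyond that spread, 31 tests lost a call, 9 gained one and 4 reversed. Some of these values had little or no room to change. Resolution 0.5 gave the same classes as the main run, and the short transcript of Nefm alters the count of that gene alone. Classes of the same library were compared with the library as a block throughout, and stages could not be paired, since each is 1 library and the labels give no replicate numbers. The promoter values in progenitors rest on the 81 nuclei of cluster 9.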
